A study of Mus musculus with 6 samples.

Results

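The PFKFB and pyruvate dehydrogenase kinase switches are 10 genes that set how fast glucose carbon enters glycolysis and how much of the resulting pyruvate is oxidised. They were followed on 6 arrays of C2C12 myotubes, muscle fibres formed in culture from a mouse myoblast line. Insulin at 100 nM had been given for 48 h to 3 cultures, and the 3 controls were left untreated. Both groups were the same line, grown in 10% fetal bovine serum, differentiated in 2% horse serum and used between days 4 and 7 of differentiation, with medium changed every 24 h. Per the labels, the long exposure was meant to make the cells insulin resistant. The members were the probe sets whose platform symbol was exactly one of the 10 names, 131 probe sets of 241576 in all, and no member had a probe set shared with another symbol. Each gene was given the median of its probe sets on each array, on the log2 scale of the deposited RMA values, and 10 of 20416 genes are members.

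PFKFB enzymes carry a kinase and a phosphatase in the same protein and make or remove fructose 2,6-bisphosphate, a potent activator of phosphofructokinase. The pyruvate dehydrogenase kinases (PDK) phosphorylate the pyruvate dehydrogenase complex and switch it off, so that pyruvate is spared for lactate and other fates, and the phosphatases PDP1 and PDP2 remove the phosphate and switch it on. In muscle, PDK4 and PDK2 are the main kinases. PDK4 rises in fasting through FoxO and PPAR factors and is known to be held down by insulin, while PFKFB3, PFKFB4 and PDK1 are known targets of hypoxia-inducible factors.

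Both muscle kinases of the complex and its muscle phosphatase were lower after insulin, and among the tested PFKFB genes only Pfkfb3 passed the test as higher. Pdk4, Pdk2 and Pdp1 fell to between 63.6% and 70.0% of the control level, and Pfkfb3 rose 1.26-fold. Pfkfb4, Pdk1 and Pdp2 had small positive differences that did not pass the test, and Pfkfb2 and Pdk3 overlapped between the groups. Pfkfb1 lay under the level at which genes were tested, though its insulin arrays all lay above the controls, with a difference of 0.46. Of the 9 tested members 3 fell, where 6.35% of the 14291 tested genes fell, and 1 rose, where 9.56% of the tested genes rose (limma with Benjamini-Hochberg adjustment over all tested genes at 0.05, 15.9% called in either direction). All 3 insulin arrays lay below all 3 controls in 3 of the 9, where 15.7% of tested genes did so, and above them in 4, where 20% did so. The median change of all tested genes was -0.0028 on the log2 scale. Here and below a change is insulin minus control in log2 units, SE comes from limma's moderated fit and SD is over the 3 arrays of a group.

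**Figure D1:**
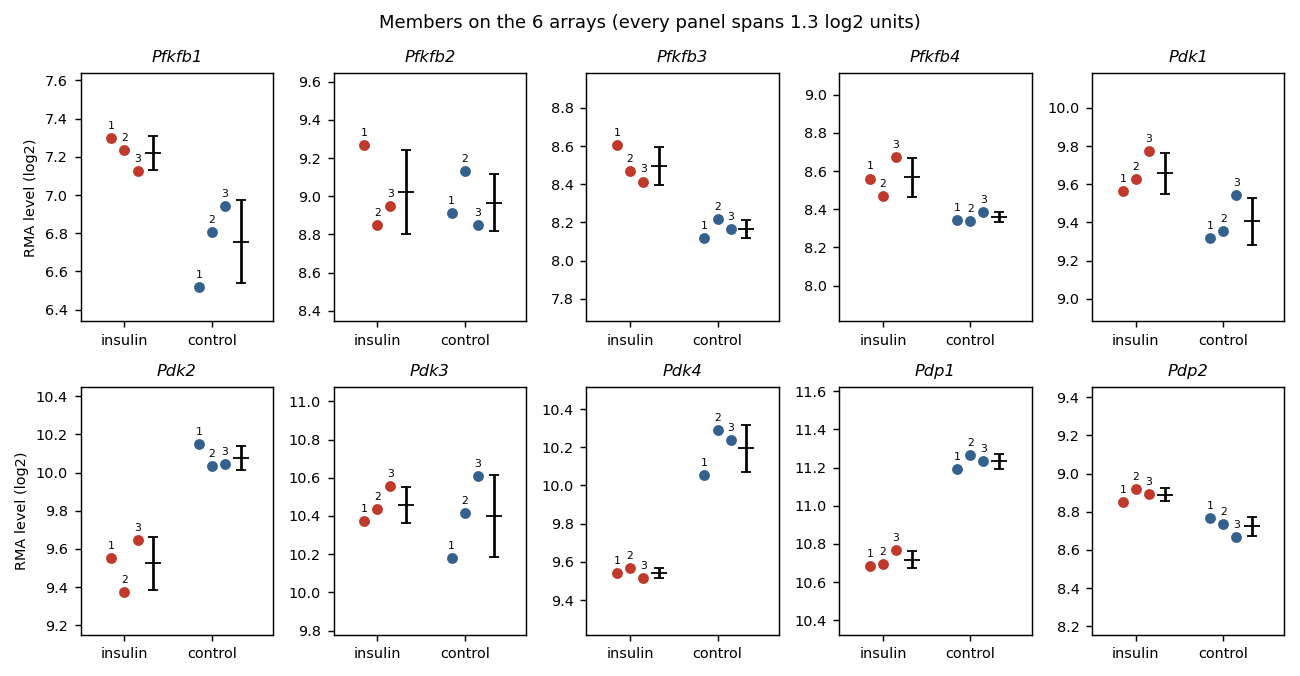
RMA level (log2) of the 10 members on each array, with insulin left and control right in every panel, points numbered by replicate and bars giving the mean and SD of 3 arrays. The insulin points of Pdk2, Pdk4 and Pdp1 lie below all control points, those of Pfkfb1, Pfkfb3, Pfkfb4, Pdk1 and Pdp2 above them, and those of Pfkfb2 and Pdk3 among them.

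Promoter stretches of the kinases that fell and of the PFKFB gene that rose are shown because the known regulators named above act on promoters. They were taken from RefSeq (build GRCm38.p6) and end before the annotated start, written 5′ to 3′ on the gene's strand, with any motif searched for in capitals. The Pdk4 stretch is the last 120 bases before the start. The Pdk2 stretch is the last 150 before the upstream one of its 2 starts. The Pfkfb3 stretches are 30 bases around a hypoxia response core, ACGTG, near each of its starts. The Pdk2 stretch holds the same core within CACGTG, as does the downstream Pfkfb3 stretch, and the capitals in the Pdk4 stretch are its variant GCGTG.
Pdk4, chr6:5496279-5496398, minus strand: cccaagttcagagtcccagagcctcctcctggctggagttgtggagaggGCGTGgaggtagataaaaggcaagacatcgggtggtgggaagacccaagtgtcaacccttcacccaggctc
Pdk2, chr11:95041372-95041521, minus strand: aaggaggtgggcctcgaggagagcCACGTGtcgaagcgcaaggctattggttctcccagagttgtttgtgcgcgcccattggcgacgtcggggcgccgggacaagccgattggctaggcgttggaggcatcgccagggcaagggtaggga
Pfkfb3, upstream start, chr2:11553972-11554001, minus strand: ctccgcgccgtgACGTGccaagctgtgacc
Pfkfb3, downstream start, chr2:11502125-11502154, minus strand: acccttctctcCACGTGaaagggggctggg

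The motifs were searched on both strands of windows of 300 bases, 250 before and 50 after each start, of which 17 belonged to 9 members (Pdp1 had no entry). The FoxO motifs TGTTTAC and TGTTTGC were in none of the 17 member windows, that of Pdk4 included, and in 3.65% and 5.07% of all 32851 windows. The hypoxia response core ACGTG was in 7 member windows and 19.6% of all windows, and its variant GCGTG in 8 and 32.4%. ACGTG was found for Pfkfb2, Pfkfb3, Pdk2, Pdk3 and Pdp2, and not for Pdk1 or Pfkfb4. GCGTG was found for Pfkfb1, Pfkfb2, Pfkfb3, Pfkfb4, Pdk1, Pdk3 and Pdk4. The E-box CACGTG, which contains ACGTG on both strands, was in 4 member windows and 7.15% of all. It lay 126 bases before the upstream one of 2 Pdk2 starts, the one shown, and 53 bases before the downstream start of Pfkfb3. The nuclear receptor motif TGACCT was in 1 member window, of Pfkfb1, and 16.3% of all. The window of the downstream Pdk2 start held none of the motifs. An E-box was thus found for Pdk2, which fell, for Pfkfb3, which rose, and for Pfkfb2 and Pdp2, which did not pass the test. A match describes the letters only.

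Pdk4, the kinase that fasting raises most in muscle, had 9.54, 9.57 and 9.52 on insulin arrays 1 to 3, against 10.06, 10.29 and 10.24 on control arrays 1 to 3. On this gene value the insulin arrays were the tighter group (SD 0.024, against 0.12 for control, n = 3 each). The median came from different probe sets on different arrays, and single probe sets went both ways in spread. Probe set 10543027 had SD 0.27 in insulin, against 0.11 in control, and 10543022 had 0.11, against 0.32. For the gene value every insulin array lay below every control array. Its change was -0.65 ± 0.077 (SE, limma adjusted p = 0.00192), a fall to 63.6% of control. In the order of falls among the 14291 tested genes Pdk4 stood at place 67. In bulk RNA, fewer cells of a type and less RNA per cell cannot be told apart.

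All 11 Pdk4 probe sets were lower on every insulin array than on any control array, where 12.2% of tested probe sets were. Of the 11, 10 were called lower by limma, against 1.44% of all tested probe sets. Their changes ran from -1.12 to -0.45, so the gene value of -0.65 stood toward the small end of them. Probe set 10543022, the dimmest of Pdk4, had 7.49, 7.29 and 7.29 in insulin, against 8.15, 8.50 and 8.78 in control. Its insulin mean of 7.358 lay just under 7.360, the mean level that a probe set needed to be tested, and its control mean was 8.48. Probe set 10543028, which moved least, had 9.54, 9.57 and 9.60 in insulin, against 10.00, 9.97 and 10.09 in control. The groups stayed apart at both ends of this range. Where the probe sets lie in the gene was not used here.

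Pdk2, the most widely expressed kinase of the family, had 9.55, 9.37 and 9.65 in insulin, against 10.15, 10.03 and 10.04 in control. Every insulin array was below every control array. The change was -0.55 ± 0.085 (SE, limma adjusted p = 0.0053), a fall to 68.2% of control and place 144 in the order of falls. All 13 Pdk2 probe sets had a negative change, from -0.74 to -0.34, where 50.9% of tested probe sets had one. Of the 13, 12 lay wholly below the controls, where 12.2% of tested probe sets did, and 4 were called lower by limma, where 1.44% were. The largest change was in probe set 10390107, with 9.51, 8.83 and 9.29 in insulin, against 10.26, 9.55 and 10.04 in control, and it was not called (adjusted p = 0.129).

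Pdk1, the kinase known as a hypoxia target, had 9.57, 9.63 and 9.77 in insulin, against 9.32, 9.36 and 9.55 in control. The insulin arrays all lay above the controls, but insulin 1 and control 3 were only a little apart. The change of 0.25 ± 0.088 (SE) did not pass (limma adjusted p = 0.0948, 95% interval 0.048 to 0.45). Among its 13 probe sets 11 had a positive change and 2 a negative one, where 49.1% of tested probe sets had a positive one. Of the 13, 1 was called higher, where 3.43% of tested probe sets were. Probe set 10472853, the one called, had 9.46, 9.62 and 9.67 in insulin, against 8.80, 8.91 and 8.95 in control. Probe set 10472847 went the other way, with 10.40, 10.18 and 10.37 in insulin, against 10.61, 10.54 and 10.49 in control, and was not called (adjusted p = 0.214). The Pdk1 probe sets therefore disagreed in sign, unlike those of Pdk2 and Pdk4. Pdk1 passed with array quality weights (0.29), its brightest probe set (0.30), the mean of its probe sets (0.35) or without control 3 (0.32), with adjusted p from 0.00881 to 0.0403.

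Pdk3, a kinase best known from testis, kidney and brain, had 10.37, 10.44 and 10.56 in insulin, against 10.18, 10.42 and 10.61 in control. The groups overlapped, and control held both the lowest and the highest array. The change was 0.055 ± 0.11 (SE, limma adjusted p = 0.789), with a 95% interval from -0.20 to 0.31, so neither a fall as large as that of Pdk2 nor a rise of 1.5-fold lay within it. None of its 14 probe sets separated the groups, where 16.6% of tested probe sets lay wholly above the controls and 12.2% wholly below.

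Pdp1, the calcium-stimulated phosphatase of muscle, had 10.69, 10.70 and 10.77 in insulin, against 11.19, 11.27 and 11.23 in control. Both groups were tight (SD 0.044 in insulin and 0.037 in control, n = 3 each) and far apart for this spread. The change was -0.52 ± 0.063 (SE, limma adjusted p = 0.00215), a fall to 70.0% of control and place 197 in the order of falls. The gene value rested on 1 of its 5 probe sets, 10511583, which was the middle one on every array. All 5 had a negative change, from -0.52 to -0.11, where 50.9% of tested probe sets had one. Of the 5, 3 lay wholly below the controls, where 12.2% of tested probe sets did. Only 10511583 was called lower, where 1.44% were. Probe set 10511582, the brightest, had 11.55, 11.63 and 11.71 in insulin, against 11.80, 12.07 and 12.04 in control. With that probe set alone the change was -0.34 and missed the threshold (limma adjusted p = 0.0545), and with the brighter probe sets it was -0.32 (0.172).

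Pdp2, the phosphatase that calcium does not stimulate, had 8.85, 8.92 and 8.89 in insulin, against 8.77, 8.73 and 8.67 in control. The insulin arrays lay just above the controls. The change of 0.16 ± 0.063 (SE) did not pass (limma adjusted p = 0.123, 95% interval 0.019 to 0.31). Its 3 probe sets had changes between 0.15 and 0.21. None was called, where 3.43% of all tested probe sets were called higher and 1.44% lower. The gene passed with array quality weights alone among the settings tried (0.16, adjusted p = 0.0285).

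**Figure D2:**
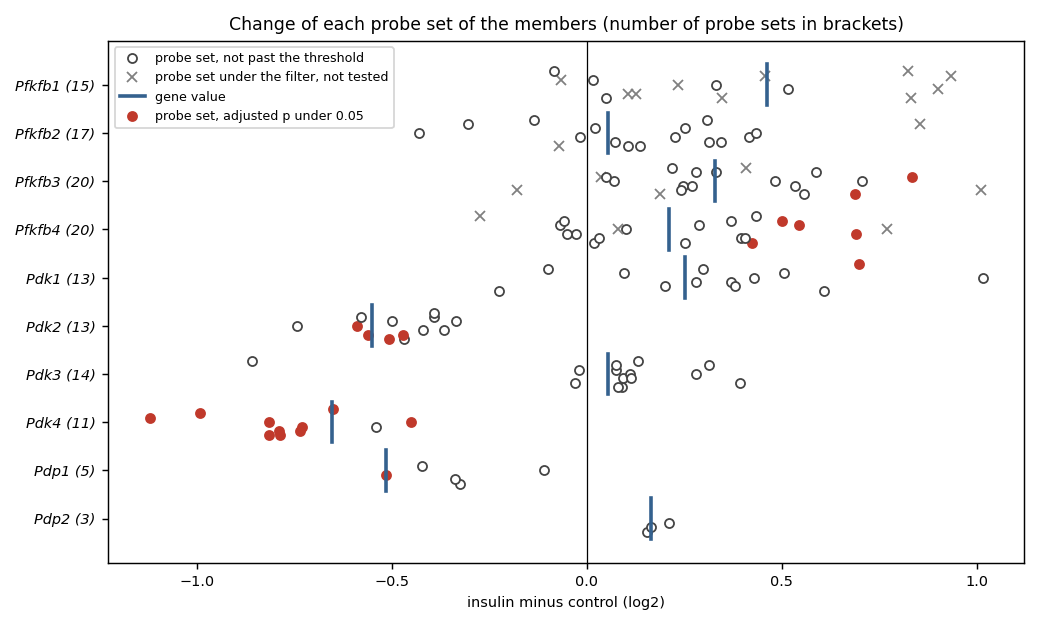
Change of each of the 131 member probe sets (insulin minus control, log2) by gene, with filled circles for those past the threshold, open circles for those tested and not past it, crosses for those under the filter, and a bar for the gene value. All probe sets of Pdk2, Pdk4 and Pdp1 lie left of 0 and all 3 of Pdp2 right of it, while the PFKFB genes, Pdk1 and Pdk3 have probe sets on both sides.

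Pfkfb3, the isoform whose kinase activity most outweighs its phosphatase activity, had 8.60, 8.47 and 8.41 in insulin, against 8.12, 8.22 and 8.16 in control. Every insulin array was above every control array. The change was 0.33 ± 0.073 (SE, limma adjusted p = 0.0206), a 1.26-fold rise and place 1234 in the order of rises among tested genes. Of its 20 probe sets 15 were bright enough to test, and all 15 had a positive change, between 0.049 and 0.83, where 49.1% of all tested probe sets did. Of the 15, 8 lay wholly above the controls, where 16.6% of tested probe sets did so. Probe sets 10480050 and 10480054 were the 2 called higher, where 3.43% of tested probe sets were. The control mean of 10480054, 7.14, lay under the mean level of 7.36 that a probe set needed to be tested. Its insulin mean was 7.97, so it was tested only through its insulin arrays. Probe set 10480050 had 9.20, 9.07 and 9.31 in insulin, against 8.60, 8.44 and 8.48 in control.

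The Pfkfb3 call was the least stable of those made. Probe set 10480047, the brightest, had 9.03, 9.22 and 8.96 in insulin, against 9.06, 8.95 and 9.06 in control, and with it alone the change was 0.049 (limma adjusted p = 0.755). The groups overlapped on it. Without insulin 1 the change was 0.27 (adjusted p = 0.0721), without insulin 2 it was 0.34 (0.0654) and without control 2 it was 0.35 (0.0531). The sign was positive under every setting in which Pfkfb3 was tested, with changes from 0.049 to 0.45.

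Pfkfb4, another hypoxia target, had 8.56, 8.47 and 8.67 in insulin, against 8.35, 8.34 and 8.39 in control. The insulin arrays were all higher and more spread than the controls. The change of 0.21 ± 0.072 (SE) did not pass (limma adjusted p = 0.0896, 95% interval 0.044 to 0.38). Its 20 probe sets fell into unlike kinds. On the one side, of the 17 tested, 4 were called higher and 8 lay wholly above the controls, where 3.43% and 16.6% of all tested probe sets did. Probe set 10589332 had the largest called change, with 8.03, 8.03 and 7.85 in insulin, against 7.25, 7.41 and 7.17 in control. Its control mean of 7.28 lay under the probe set limit of 7.36 and its insulin mean was 7.97, so it was tested only through its insulin arrays. On the other side probe set 10589339, with a mean level of 11.30 where the next brightest had 9.13, had 11.27, 11.28 and 11.30 in insulin, against 11.39, 11.37 and 11.17 in control. The groups overlapped on that probe set, and with it alone the change of the gene was -0.028 (adjusted p = 0.845). Pfkfb4 passed with array quality weights (0.22), the mean of its probe sets (0.24), the brighter probe sets (0.32) or those above the probe set filter (0.33), with adjusted p from 0.00819 to 0.0165.

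Pfkfb2, the heart isoform that AKT phosphorylates and activates in response to insulin, had 9.27, 8.85 and 8.95 in insulin, against 8.91, 9.13 and 8.85 in control. The groups overlapped. The change was 0.055 ± 0.12 (SE, limma adjusted p = 0.809), with a 95% interval from -0.23 to 0.34. Its sign turned under 4 settings, with values down to -0.091. Of its 17 probe sets 15 were tested, of which 11 had a positive and 4 a negative change. None was called, where 3.43% of all tested probe sets were called higher and 1.44% lower. Wholly above the controls lay 4 of the 15, where 16.6% of all tested probe sets did.

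Pfkfb1, the isoform of liver and adult skeletal muscle, had 7.30, 7.23 and 7.12 in insulin, against 6.52, 6.81 and 6.94 in control. The insulin arrays lay above the controls, and control 1 was the lowest of the 6. Its mean level of 6.99 was just under the limit of 7.05 (the 30th percentile of gene means), so it was not tested, and whether its signal was above background was not judged. Of its 15 probe sets 10 lay under the corresponding limit of 7.36. The difference of the group means was 0.46, which did not pass when no filter was set (SE 0.12, limma adjusted p = 0.0505). The 5 brighter probe sets that could be tested had changes from -0.083 to 0.52. None was called, where 3.43% of all tested probe sets were called higher and 1.44% lower. Where probe sets were averaged instead, Pfkfb1 came above the limit and passed (0.37, limma adjusted p = 0.0041), as it did with its brighter probe sets (0.32, 0.0317), while the brightest alone gave 0.049 (0.756).

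Within a family, changes can be set against each other on the same arrays. The 13 pairs of genes within the PFKFB, PDK and PDP families were compared by the difference of their changes, with an exact two-sided permutation test over the 6 arrays. The smallest p that 3 against 3 arrays allow is 0.1, and 7 pairs reached it (0.186 adjusted over the 13 pairs), so no pair could pass. The change of Pdk1 exceeded that of Pdk4 by 0.90 and that of Pdk2 by 0.80, and the change of Pdk3 exceeded that of Pdk4 by 0.71. The change of Pdk1 exceeded that of Pdk3 by 0.20, and that of Pdk2 minus that of Pdk3 was -0.61. The change of Pdp1 minus that of Pdp2 was -0.68, and that of Pfkfb2 minus that of Pfkfb3 was -0.27. In these 7 pairs the arrays of the groups did not overlap. All of them except Pdk1 with Pdk3 held a gene called above, so they are not independent of those calls. The share over other gene pairs was not computed. The change of Pdk2 minus that of Pdk4 was 0.10, with overlapping arrays.

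Neighbouring enzymes were counted from lists compiled from general knowledge. Of the 6 subunits of the pyruvate dehydrogenase complex and its phosphatase, none rose, 1 fell and 5 did not pass, where 9.56% of all tested genes rose and 6.35% fell. Their median change was -0.15, and that of all tested genes -0.0028. The one that fell was Pdpr (4930402E16Rik in the annotation), the regulatory subunit that works with PDP1. It had 10.32, 10.39 and 10.39 in insulin, against 10.52, 10.65 and 10.77 in control, a change of -0.28 ± 0.080 (SE) close to the threshold (limma adjusted p = 0.049). The catalytic subunit genes Pdha1 and Pdhb changed by -0.12 (adjusted p = 0.259) and 0.057 (0.640) and did not pass.

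Upstream, genes around the step that PFKFB products regulate moved in both directions. Of 5 tested genes of fructose 6-phosphate phosphorylation and reversal 1 rose and 2 fell, where 9.56% and 6.35% of all tested genes did, with a median of -0.049. Pfkl, the liver-type phosphofructokinase, rose by 0.63 and Pfkm, the muscle type, fell by 0.35. Fbp2, the muscle fructose bisphosphatase that reverses the step, had 6.88, 6.74 and 7.35 in insulin, against 7.72, 7.85 and 7.40 in control. It changed by -0.67 ± 0.17 (SE, limma adjusted p = 0.035), with insulin 3 and control 3 nearly level. The insulin mean of Fbp2, 6.99, lay under the gene limit of 7.05, and its control mean, 7.66, above it. Fbp2 was thus tested only through its control arrays. Tigar (9630033F20Rik), which removes fructose 2,6-bisphosphate, changed by 0.30 and did not pass (adjusted p = 0.0903).

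At the pyruvate node 2 of 8 genes rose, where 9.56% of tested genes did, 1 fell, where 6.35% did, and 5 did not pass, with a median of 0.0059. The monocarboxylate transporter genes Slc16a1 and Slc16a3, whose proteins carry lactate and pyruvate across the cell membrane, rose by 0.41 ± 0.067 (SE, limma adjusted p = 0.00637) and 0.50 ± 0.12 (0.0246). Slc16a3 had 9.43, 9.57 and 9.73 in insulin, against 8.86, 9.07 and 9.27 in control. Mpc2 (Brp44), a subunit of the carrier that brings pyruvate into mitochondria, changed by -0.41 ± 0.12 (0.0494), while its partner Mpc1 (Brp44l) stood at 0.046 (0.789). Ldha, lactate dehydrogenase A, changed by 0.14 and did not pass (0.315).

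Of 12 tested genes for regulators known to act on the members 2 rose, 1 fell and 9 did not pass, with a median of -0.073, where 9.56% and 6.35% of all tested genes rose and fell. Foxo3, a FoxO factor that activates Pdk4, had 10.67, 10.69 and 10.52 in insulin, against 10.92, 11.03 and 10.97 in control, a change of -0.35 ± 0.071 (SE, limma adjusted p = 0.0155). Foxo1 changed by -0.20 and did not pass (0.152), and Ppara and Ppargc1a lay under the filter. Myc rose by 0.67, and Cebpb, a basic leucine zipper factor, rose by 0.29 ± 0.075 (0.0344). Hif1a, the oxygen-regulated subunit of the hypoxia factor, had 11.56, 11.21 and 11.49 in insulin, against 10.94, 11.12 and 11.19 in control, and did not pass (0.34, adjusted p = 0.0729). RNA levels of these factors do not measure their activity.

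**Figure D3:**
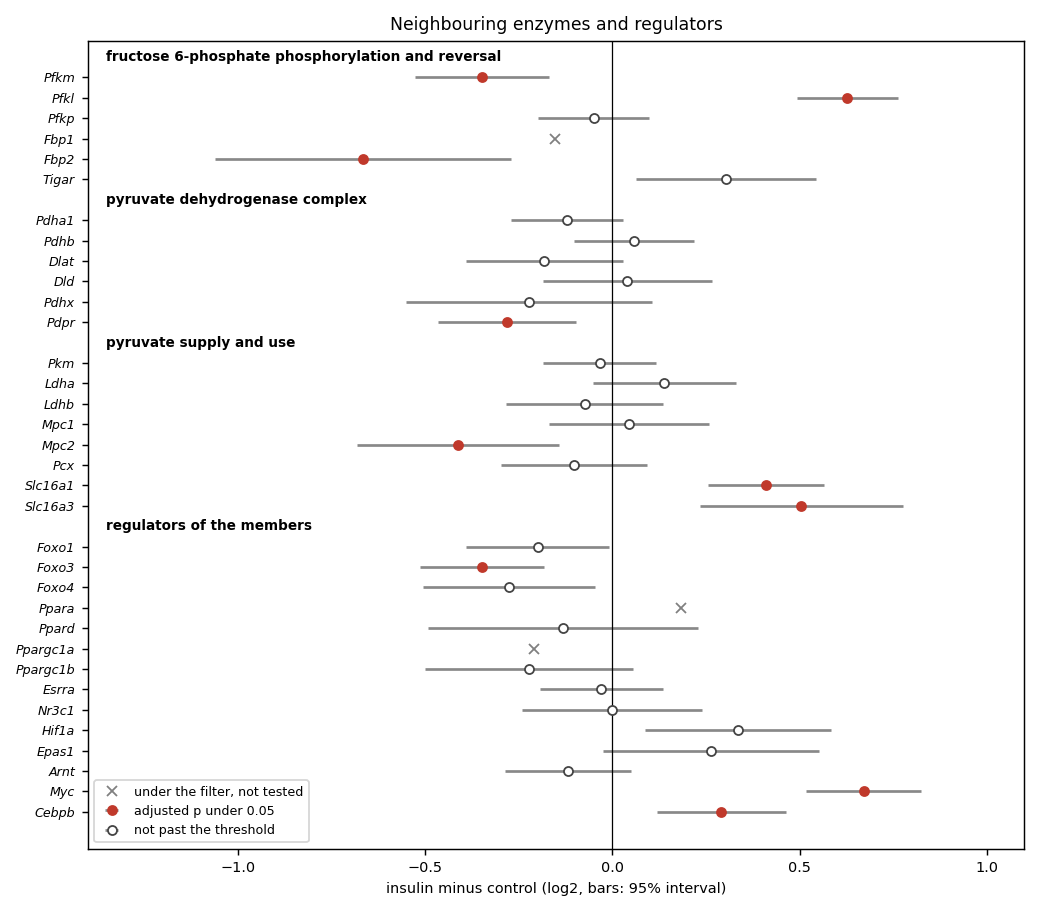
Change of each gene of the 4 neighbouring lists (insulin minus control, log2) with its 95% interval from limma, filled where past the threshold, open where not, and crosses for genes under the filter. Pfkl, Myc, Slc16a3, Slc16a1 and Cebpb lie to the right, and Fbp2, Mpc2, Pfkm, Foxo3 and Pdpr to the left.

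For each member past the threshold, the tested genes with the most similar course over the 6 arrays were found by the root mean square difference of profiles after each gene's own mean was taken off. For Pdk4 they were Mturn (2410066E13Rik in the annotation) and Enpp1, an ectoenzyme that binds the insulin receptor, at 0.038 and 0.042, where the median over all genes was 0.35. For Pdk2 they were Fstl1 and Mxra8, both at 0.049. For Pdp1 they were Tpm3, a tropomyosin gene (0.028), and Rap1gap2 (Garnl4 in the annotation, 0.033). For Pfkfb3 they were Srsf1 (Sfrs1), a splicing factor gene (0.021), and Ncl, the gene of nucleolin (0.025). The difference between the groups is part of this measure, and it rests on 6 arrays.

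Markers of the cell state moved with the treatment too. Of 20 tested myotube markers 8 fell and none rose, where 6.35% of all tested genes fell and 9.56% rose. Their mean level was 12.29 to 12.32 on insulin arrays, against 12.48 to 12.66 on control arrays. Of 11 measured markers of proliferating cells 10 rose, where 9.56% of tested genes did, with a mean level of 11.64 to 11.70 in insulin, against 11.07 to 11.12 in control. Myf5, Cd34 and Met, 3 of 6 markers of myoblasts or satellite cells, rose too, where 9.56% of tested genes did. Pax7 (-0.032, limma adjusted p = 0.915) and Vcam1 (0.21, 0.0569) did not pass, and Pax3 lay under the filter. The mean level of the 6 was 9.42 to 9.48 in insulin, against 9.15 to 9.21 in control. The part of all these markers in the changes of Pdk4, Pdk2, Pdp1 and Pfkfb3 was not tested. Among markers of other cell types, 4 of 5 for macrophages, 3 of 6 for adipocytes and 3 of 5 for endothelial cells lay under the filter. None of those tested was called, where 9.56% of all tested genes rose and 6.35% fell.

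**Figure D4:**
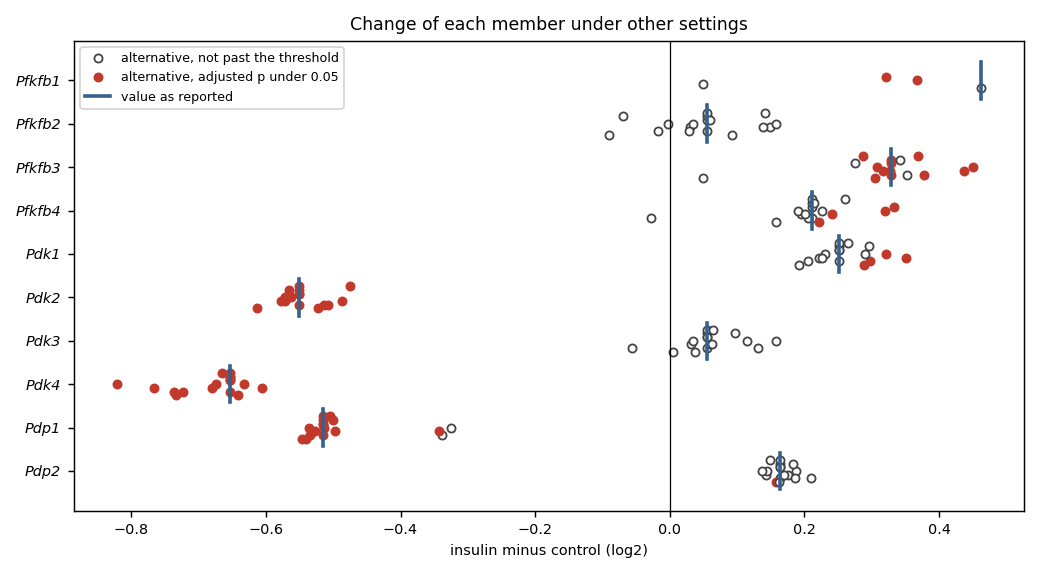
Change of each member (insulin minus control, log2) under up to 17 other settings, filled where past the threshold, with a bar for the value as reported. Pdk2 and Pdk4 stay left of 0 and filled throughout, Pdp1 loses its call under 2 settings, and Pfkfb3 under 4.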

How the data were processed

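The values deposited by the authors are log2 levels of single probe sets after RMA, per the submitters' processing notes, which give no version. The base is not stated, and 2 was taken because values ran between 3.15 and 14.55. RMA equalises arrays, so changes are relative to other transcripts. Per the labels, the biotin-labelled material was amplified from 25 ng RNA. Array medians lay between 8.79 and 8.82, no detection calls or scan dates were used here, and precision is limited by the number of arrays. Gene symbols came from GEO's platform annotation, and older symbols were matched through RefSeq synonyms.

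Gene values (medians of single-symbol probe sets) and probe sets were fitted with limma 3.58.1 in R 4.3.3, insulin minus control, without covariates. Features under the 30th percentile of mean level were left out, which left 14291 genes and 169103 probe sets, and p-values were adjusted over all of them by Benjamini-Hochberg at 0.05. The fit was tested on simulated gene values with independent noise for each gene. That simulation held no shared array effects and no disagreement among probe sets, so it cannot show how these affect the calls. The labels call the arrays biological replicates. All 10 members are named, as are list genes past the threshold and the 2 nearest profiles of each called member. List genes named without passing, other markers and single probe sets were chosen after their values were seen. Members, lists and motifs were chosen with earlier results of these data known. The search for an AKT consensus in the member proteins was not run, as no protein sequences were used here.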

Additional observations from a re-analysis of the deposited data

How the results depend on the processing

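Pdk2 and Pdk4 kept their call under all 17 alternatives, with changes from -0.61 to -0.48 and from -0.82 to -0.61. Between 2 and 3 members were called lower under every alternative. The number called higher was 1 as reported, 4 with array quality weights and with the mean of probe sets, 3 with the brighter probe sets, 2 with probe sets above the filter (chosen after seeing the data), 0 with the filter at the 50th percentile, which left Pfkfb3 out, and 0 to 2 without 1 array in turn. Pfkfb2 turned to -0.091 with array weights and -0.018 with its brightest probe set, and lay between -0.069 and 0.14 without 1 array in turn, where it was negative without insulin 1 or without control 3 (-0.0029). Pfkfb4 turned to -0.028 with its brightest probe set. Pdk3 lay between -0.056 and 0.16 without 1 array in turn, and was negative without control 1. The cause was not tested. Of all genes 2274 were called, 5007 with array weights, 3436 with the mean of probe sets and 1045 to 2449 without 1 array in turn.

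Of 111 tested member probe sets 7 were called higher and 15 lower, where 3.43% and 1.44% of all tested probe sets were. Without a filter, where more probe sets are tested, these were 4 and 8, and calls over all probe sets 2960, against 8235 with it. With the replicate number as a block they were 0 and 1, and calls over all probe sets 656, while the block left the calls of member genes at 1 higher and 3 lower and the count of genes at 1970. Same-numbered arrays deviated together with r = 0.025, 0.19 and -0.00036 for replicates 1 to 3. Between arrays of unlike number r ran from -0.10 to 0.069, so the value of replicate 2 was the highest. The main fit did not pair arrays by number, and what they share was not tested.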

Other observations

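On 3 of the 17 Pfkfb2 probe sets, both arrays with replicate number 2 were the lowest of their group by over 0.5 on the log2 scale. No probe set of the other 9 members passed that limit for replicate 2, though Pdk2 probe set 10390107 came close to it. The limit was not applied to the other replicate numbers. Without a limit, both arrays of replicate 1 were the lowest on 7 of 14 Pdk3, 5 of 13 Pdk1, 5 of 20 Pfkfb4, 2 of 5 Pdp1 and 2 of 3 Pdp2 probe sets. Those of replicate 3 were the lowest on 4 of 11 Pdk4 probe sets. The shares of all probe sets with such patterns, with or without the limit, were not computed. Of the Pfkfb2 probe sets, 10357546 had 8.37, 6.83 and 7.94 in insulin, against 8.62, 7.15 and 8.67 in control. Probe set 10357541 had 9.73, 8.03 and 8.92 in insulin, against 9.55, 8.59 and 9.46 in control. These Pfkfb2 probe sets were chosen after their values were seen, and the labels do not say what arrays of the same number share. The Pdk1 probe set with the largest change, 10472850, had 8.18, 7.78 and 7.83 in insulin, against 6.13, 6.45 and 8.17 in control, so that control 3 stood at the insulin level.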
